A study of Mus musculus with 6 samples.

Results

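The 10 genes described here are Egr1, Egr2, Egr3, Nr4a1, Nr4a3, Arc, Npas4, Ier2, Ier3 and Dusp1, a set of immediate early genes taken by name from a table of isoform levels in mouse spinal cord. A gene's level was the sum of the FPKM (fragments scaled to transcript length and library size) of its isoforms of the reference classes, which match or overlap annotated exons. All 10 genes were in the table, among 29057 gene names with such an isoform above 0. The injured group (TSCI) came from male C57BL/6 mice aged 8 weeks that had a laminectomy at vertebrae T8 to T10 under pentobarbital and a moderate spinal cord injury from a dropped weight, and the sham group from mice of the same strain, sex and age with the laminectomy alone. Both groups thus share the anaesthesia and the opened vertebrae. There were 3 libraries per group. According to the labels 48 mice were split into sets of 8. Whether a set was pooled, and how long after surgery the tissue was taken, was not stated in the labels. P-values therefore measure the spread between these libraries, which may be technical in part.

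Immediate early genes are switched on within minutes of a stimulus, without new protein synthesis, when kinases such as ERK activate factors already bound to their promoters, among them SRF with its ELK partners and CREB. Their transcripts are short-lived, so a level in tissue reflects recent stimulation as well as the cells present. Some encode transcription factors that pass the signal on (the EGR and NR4A proteins, NPAS4), others act at synapses (Arc) or switch the signal off (Dusp1). In the spinal cord, as in the brain, they are known as marks of neuronal activity and of the response of glia and blood vessels to injury.

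Promoter sequences are shown because the members share these inducers, and the printed ones belong to the members whose levels are contrasted below. RefSeq promoter entries (build GRCm38.p6) of 6 of the 10 members were used, and the 250 bases before each start were searched on both strands. No entry was found for Egr3, Ier2 and Arc. Egr1 was left out of the search by choice, so its motifs were not examined. The letters sought were the CREB site TGACGTCA (in 1.55% of 32851 promoters), its core TGACG (17.8%; every full CREB site also holds it), the CArG box of SRF (1.47%), the EGR site GCGNGGGCG (4.7%), the NR4A site AAAGGTCA (1.34%) and the AP-1 site TGANTCA (6.75%). Matches are in capitals (CGTCA is the CREB core on the other strand), and each sequence stops at the annotated first exon of the isoform counted here.
Ier3, chr17:35821463-35821683, plus strand: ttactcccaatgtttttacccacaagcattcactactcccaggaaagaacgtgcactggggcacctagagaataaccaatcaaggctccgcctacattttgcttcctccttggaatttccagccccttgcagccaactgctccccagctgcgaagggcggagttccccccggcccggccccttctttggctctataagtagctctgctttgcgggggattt
Dusp1, chr17:26508520-26508722, minus strand: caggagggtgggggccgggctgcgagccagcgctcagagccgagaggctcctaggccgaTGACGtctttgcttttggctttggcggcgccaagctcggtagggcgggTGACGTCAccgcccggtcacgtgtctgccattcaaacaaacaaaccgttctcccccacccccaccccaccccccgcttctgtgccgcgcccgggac
Nr4a1, chr15:101266596-101266845, plus strand: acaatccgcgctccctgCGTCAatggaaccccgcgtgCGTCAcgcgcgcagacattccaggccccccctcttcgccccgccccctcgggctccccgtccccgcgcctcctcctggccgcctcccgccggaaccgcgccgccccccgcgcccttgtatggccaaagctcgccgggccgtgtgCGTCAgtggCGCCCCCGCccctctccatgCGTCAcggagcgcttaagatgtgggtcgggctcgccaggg
Egr2, chr10:67537619-67537868, plus strand: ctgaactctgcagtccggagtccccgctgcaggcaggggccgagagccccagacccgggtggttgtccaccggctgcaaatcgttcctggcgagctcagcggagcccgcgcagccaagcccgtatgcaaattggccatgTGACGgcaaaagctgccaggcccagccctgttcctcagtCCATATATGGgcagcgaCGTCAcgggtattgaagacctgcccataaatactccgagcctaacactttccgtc
Of the 6 members, 5 held the CREB core in at least 1 entry. Egr2 had several entries, some without the core, while the shares given above are per entry. Nr4a1 and Nr4a3 had 4 matches each, Egr2 and Npas4 had 2 each, and Dusp1 had 3, with 2 of them inside its single full CREB site. Among the 6 members searched, Egr2 was the only one with a CArG box and Nr4a1 the only one with an EGR site. Ier3 held none of the 6 motifs in its window. No entry of the 6 members held the NR4A or AP-1 letters. A match is a description of the letters and shows no binding.

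The libraries differed in ways that bear on these genes. The deposited FPKM and coverage imply 4.46 to 9.16 gigabases of aligned sequence in TSCI and 4.8 to 8.2 in sham. TSCI replicate 1 and sham replicate 1, both sequenced on lane 8, carried an intronic share of 9.8% and 10.2% of aligned bases, while the libraries of lanes 1 and 3 carried 2.0% to 3.8%. Sham replicate 2, the only library of lane 3, had 2451 of the 16740 tested genes listed at 0, where the other 5 libraries had 409 to 762. None of 73 ribosomal protein genes was at 0 in any library. The median log2 fold change (TSCI minus sham) of all tested genes was 0.44 as deposited. Scaling by median ratios brought it to 0.09 and quantile normalization to -0.03, so changes are also given relative to that median.

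Ier3 was 9.77-fold higher by group mean, and higher in every TSCI library than in any sham library, while Egr1, Egr2, Egr3, Nr4a1, Nr4a3, Arc and Npas4 overlapped between the groups. Ier3 passed the test across all genes, Ier2 and Dusp1 separated the groups without passing it, and no member was lower past the threshold. Of the 10 members, 7 reached the mean of 0.5 FPKM needed for testing, and 1 of these 7 passed (limma on log2(FPKM + 0.5), adjusted p under 0.05 over 16740 genes). In the same fit 0.89% of all tested genes passed, 0.878% as higher and 0.0119% as lower in TSCI. At an unadjusted p under 0.05, 2 of the 7 members passed, against 1677 higher and 295 lower among all tested genes. All TSCI libraries lay above all sham libraries in 3 of the 10 members, all among the 7 tested, against 13.4% of tested genes. In no member did the TSCI libraries all lie below the sham libraries, against 3.13% of tested genes. The median log2 fold change of the 7 tested members was 1.15, which is 0.71 above the median of all tested genes. In bulk tissue, fewer cells of a type and less RNA per cell cannot be told apart.

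**Figure D1:**
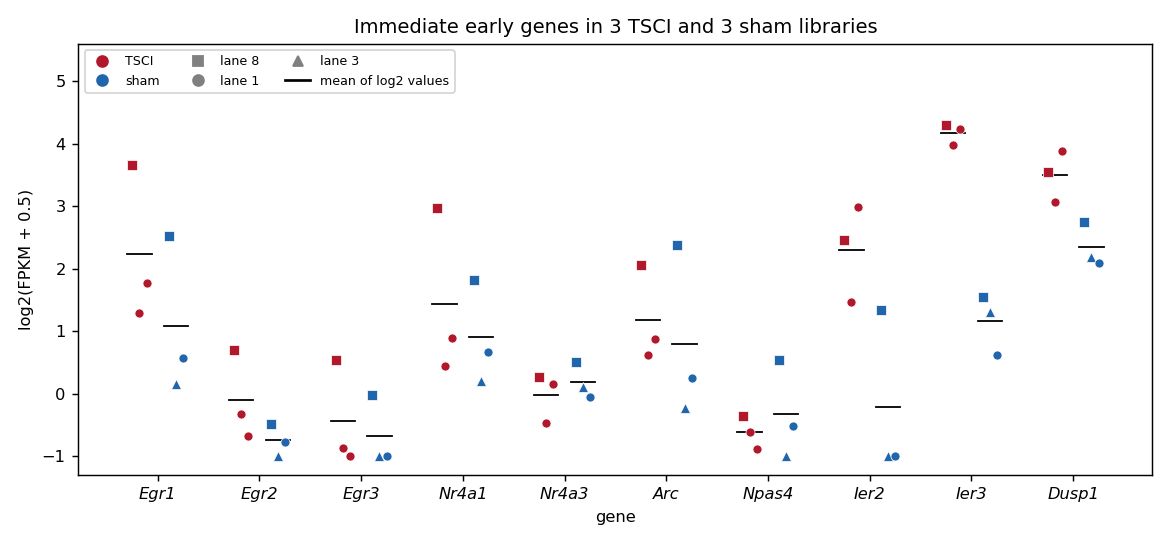
Level of each gene as log2(FPKM + 0.5) in 3 TSCI (red) and 3 sham (blue) libraries, with marker shapes for the sequencing lane and a line at the mean of each group. The Ier2, Ier3 and Dusp1 values of TSCI lie above those of sham, while the lane 8 libraries (squares) are the highest in both groups for Egr1, Egr2, Egr3, Nr4a1, Nr4a3, Arc, Npas4 and Ier3.

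Ier3 (ENSMUSG00000003541, chromosome 17, 35821684 to 35822923, GRCm38) encodes a small protein known to modulate cell survival and ERK signalling. Ier3 had 19.3, 15.3 and 18.3 FPKM in TSCI replicates 1 to 3, against 2.41, 1.98 and 1.03 FPKM in sham replicates 1 to 3. The groups were far apart and each was narrow, with means of 17.7 ± 2.06 FPKM in TSCI and 1.81 ± 0.705 FPKM in sham (SD, n = 3 each). These values rested on 97.3 to 190.1 aligned kilobases in TSCI and on 9.58 to 16.2 in sham. The log2 fold change was 3.02 ± 0.63 (SE; limma, adjusted p = 0.0394), which is 2.58 above the median of all tested genes. It was 2.77 within lane 8 (1 library of each group) and 3.49 within lane 1 (2 TSCI libraries and 1 sham library). The size was stable and the call was not. Over 20 alternatives the log2 fold change ran from 2.59 to 3.51, all positive, and 8 of the 20 passed the threshold, with adjusted p between 1.49e-06 and 0.303 (limma). The call was lost without TSCI replicate 1, 2 or 3 (adjusted p = 0.139, 0.123 and 0.303, limma) and without sham replicate 2 or 3 (0.0855 and 0.192), and it held without sham replicate 1 (0.00309). Scaling by median ratios also ended it (limma, adjusted p = 0.0594), as did quantile normalization (0.068), and it held with no lane 8 libraries (0.0168).

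Ier2 (ENSMUSG00000053560, chromosome 8, 84661331 to 84662852), an intronless gene for a nuclear early response protein, had 5.02, 2.26 and 7.47 FPKM in TSCI replicates 1 to 3, against 2.03 FPKM in sham replicate 1 and 0 in sham replicates 2 and 3. The lowest TSCI library was only slightly above the highest sham library, and the difference rests on sham libraries listed at 0. The log2 fold change was 2.53 ± 0.79 (SE; limma, adjusted p = 0.177). Within lane 8 the log2 difference was 1.12 and within lane 1 it was 3.23. Ier2 passed without sham replicate 1 (limma, adjusted p = 0.0057, log2 fold change 3.31) and with no lane 8 libraries (0.0282, 3.23).

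Dusp1 (ENSMUSG00000024190, chromosome 17, 26505590 to 26562128) encodes a phosphatase that inactivates MAP kinases and so ends the signal that induces it. Dusp1 had 11.2, 7.90 and 14.3 FPKM in TSCI replicates 1 to 3, against 6.25, 4.07 and 3.75 FPKM in sham replicates 1 to 3. The groups did not overlap, with means of 11.2 ± 3.22 FPKM in TSCI and 4.69 ± 1.36 FPKM in sham (SD, n = 3 each). The log2 fold change of 1.16 ± 0.63 (SE) did not pass (limma, adjusted p = 0.51), and it was 0.80 within lane 8 and 1.39 within lane 1. Dusp1 did not pass in any fit that left out 1 library.

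The Dusp1 sum mixes 3 annotated isoforms that behaved differently. The protein-coding isoform ENSMUST00000025025 had 4.92, 4.67 and 4.25 FPKM in TSCI replicates 1 to 3, against 3.63, 0 and 0.254 FPKM in sham replicates 1 to 3. The retained-intron isoform ENSMUST00000146077 had 5.13, 2.80 and 4.41 FPKM in TSCI, against 0.994, 0 and 0.639 FPKM in sham. Both were thus higher in every TSCI library than in any sham library, and both were at 0 in sham replicate 2. The share of all tested isoforms that separate the groups in this way was not computed. The longer retained-intron isoform ENSMUST00000126178 overlapped between the groups, with 1.18, 0.43 and 5.67 FPKM in TSCI and 1.62, 4.07 and 2.85 FPKM in sham. It made up 10.5%, 5.4% and 39.6% of the Dusp1 level in TSCI replicates 1 to 3, against 25.9%, 100% and 76.2% in sham replicates 1 to 3, so its shares overlapped as well. None passed in the isoform fit (limma, adjusted p = 0.793 for the coding isoform, 0.793 for ENSMUST00000146077 and 0.877 for ENSMUST00000126178), where 0.208% of 89293 isoforms passed, 0.17% as higher in TSCI. Of 15 tested isoforms at member loci none passed, and 4 were higher at an unadjusted p under 0.05 in limma. These were ENSMUST00000025025 and ENSMUST00000146077 of Dusp1, and the single isoforms of Ier2 and Ier3. Among all 89293 tested isoforms, 2558 higher and 1018 lower ones were under that p. In simulated data the isoform fit called none of the planted changes at any size tried, so an isoform that did not pass is not shown to be unaltered. Overlapping isoforms share reads, and how StringTie divides them is an estimate.

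**Figure D2:**
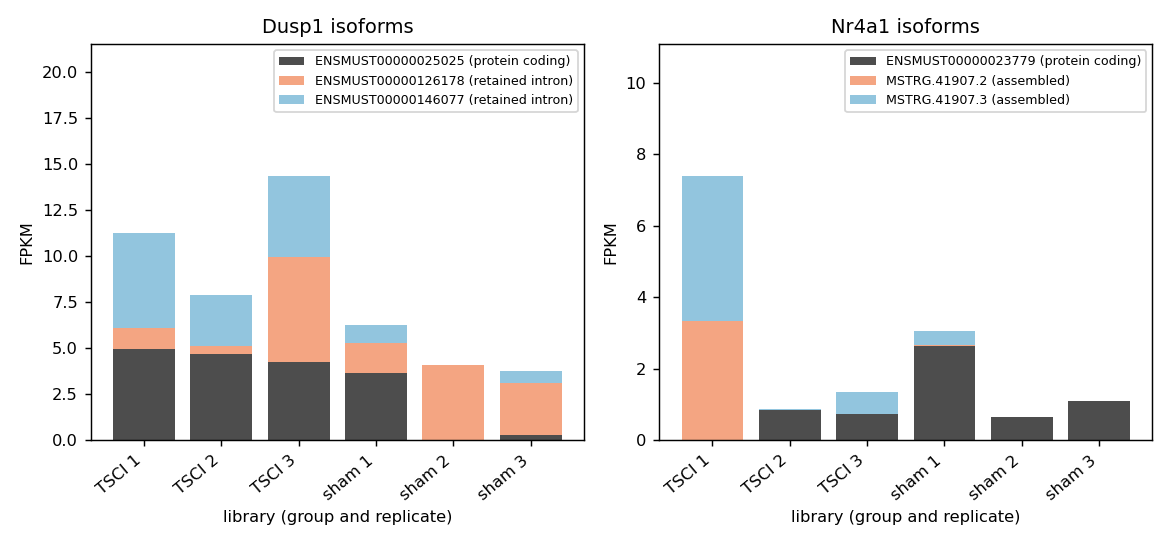
FPKM of the reference-class isoforms of Dusp1 (left) and Nr4a1 (right), stacked in each library, with the 3 TSCI libraries left of the 3 sham libraries. The coding isoform of Dusp1 (dark) is near 4 to 5 FPKM in TSCI and at 0 in sham replicate 2, and the Nr4a1 bar of TSCI replicate 1 consists of assembled isoforms.

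The EGR genes encode zinc-finger transcription factors, of which Egr1 is the one most widely induced by growth factors and neuronal activity. Egr1 (ENSMUSG00000038418, chromosome 18, 34859823 to 34864984) had 12.1, 1.93 and 2.91 FPKM in TSCI replicates 1 to 3, against 5.27, 0.617 and 0.984 FPKM in sham replicates 1 to 3. The groups overlapped because sham replicate 1 lay above TSCI replicates 2 and 3, and the lane 8 library was the highest in each group. The mean was 5.66 ± 5.62 FPKM in TSCI and 2.29 ± 2.59 FPKM in sham (SD, n = 3 each), and Egr1 did not pass, at 1.15 ± 0.83 on the log2 scale (SE; limma, adjusted p = 0.637). Within lane 8 the log2 difference was 1.13, where the median of all tested genes was 0.04, and within lane 1 it was 0.96, where that median was 0.47. Without TSCI replicate 1 the log2 fold change was 0.44, and without sham replicate 1 it was 1.87, neither past the threshold (limma, adjusted p = 0.965 and 0.106).

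Egr2 and Egr3 were too low for testing. Egr2 (ENSMUSG00000037868, chromosome 10, 67535475 to 67542188), also known as a regulator of myelination in Schwann cells, had 1.11, 0.301 and 0.125 FPKM in TSCI replicates 1 to 3, against 0.217, 0 and 0.087 FPKM in sham replicates 1 to 3. Egr3 (ENSMUSG00000033730, chromosome 14, 70077203 to 70082614) had 0.954, 0.0438 and 0 FPKM in TSCI, against 0.485, 0 and 0 FPKM in sham. In both genes the lane 8 libraries were the highest of their group and the groups overlapped. The difference of mean log2 values was 0.65 for Egr2 and 0.23 for Egr3, with two-sided exact permutation p = 0.2 and p = 0.7, where the smallest p that 3 against 3 libraries allow is 0.1. Without TSCI replicate 1 the difference was 0.25 for Egr2 and -0.27 for Egr3, and over all alternatives run that of Egr2 lay between 0.25 and 1.40. Schwann cell markers, which bear on Egr2, summed to 276.3 to 795.9 FPKM in TSCI and to 162.2 to 782.8 FPKM in sham, with 2 of 6 tested markers higher in TSCI.

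Some RNA at the Egr3 locus lay outside the counted isoforms. The annotated Egr3 isoform of the table ends at 70080157, and 2 assembled single-exon isoforms downstream of it, at 70080920 to 70081462 and 70081851 to 70082233, lie within the GENCODE bounds of the gene. The nearer of them had 1.68, 0 and 0.148 FPKM in TSCI replicates 1 to 3, against 0, 4.75 and 0.226 FPKM in sham replicates 1 to 3. The farther one was at 0 in all 3 TSCI libraries, against 3.12, 0 and 2.05 FPKM in sham. With all isoform classes summed, the difference of mean log2 values of Egr3 was -1.92, so its direction depends on which isoforms are counted.

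The NR4A genes encode orphan nuclear receptors that act without a known natural ligand and are induced in neurons and macrophages. Nr4a1 (ENSMUSG00000023034, chromosome 15, 101254269 to 101274795) had 7.39, 0.866 and 1.35 FPKM in TSCI replicates 1 to 3, against 3.04, 0.656 and 1.09 FPKM in sham replicates 1 to 3. As in Egr1, the lane 8 libraries exceeded all the others and the groups overlapped. The log2 fold change was 0.54 ± 0.80 (SE; limma, adjusted p = 0.828), with 1.15 within lane 8 and 0.00 within lane 1, and it was -0.23 without TSCI replicate 1.

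The Nr4a1 level of TSCI replicate 1 came from partial isoforms. The full-length coding isoform, with 7 exons, was at 0 in TSCI replicate 1 and at 0.838 and 0.732 FPKM in TSCI replicates 2 and 3, against 2.64, 0.657 and 1.09 FPKM in sham replicates 1 to 3. Assembled isoforms of 2 exons with new junctions carried TSCI replicate 1, at 3.35 FPKM at the 5′ end of the gene and 4.04 FPKM at its 3′ end. From isoforms identical to the annotation only, the log2 fold change of Nr4a1 was -0.94 (limma, adjusted p = 0.665), so its direction is not settled.

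Nr4a3 (ENSMUSG00000028341, chromosome 4, 48045153 to 48086447) had 0.704, 0.222 and 0.612 FPKM in TSCI replicates 1 to 3, against 0.917, 0.577 and 0.461 FPKM in sham replicates 1 to 3. The 6 values ran from 0.222 to 0.917 FPKM, and the groups overlapped. The means were 0.513 ± 0.256 FPKM in TSCI and 0.652 ± 0.237 FPKM in sham (SD, n = 3 each). The log2 fold change was -0.20 ± 0.61 (SE; limma, adjusted p = 0.924). It was positive without TSCI replicate 2 (0.03), with array weights (0.12) and with all isoform classes (0.34), none of these past the threshold.

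Arc and Npas4 are the members most tied to neurons. Arc (ENSMUSG00000022602, chromosome 15, 74669083 to 74672570), whose protein controls AMPA receptors at synapses, had 3.68, 1.03 and 1.33 FPKM in TSCI replicates 1 to 3, against 4.71, 0.352 and 0.684 FPKM in sham replicates 1 to 3. The groups overlapped fully at the top, where the lane 8 libraries stood. The mean was 2.01 ± 1.45 FPKM in TSCI and 1.92 ± 2.43 FPKM in sham (SD, n = 3 each), and the log2 fold change was 0.39 ± 0.79 (SE; limma, adjusted p = 0.881), with -0.32 within lane 8 and 0.50 within lane 1. Its sign turned with quantile normalization (-0.11) and without TSCI replicate 1 (-0.05) or sham replicate 2 (-0.13).

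Npas4 (ENSMUSG00000045903, chromosome 19, 4984355 to 4990316), a transcription factor induced by calcium entry in neurons, had 0.284, 0.151 and 0.0415 FPKM in TSCI replicates 1 to 3, against 0.958, 0 and 0.2 FPKM in sham replicates 1 to 3. It was too low for testing, and the difference of mean log2 values of -0.29 rested on sham replicate 1, without which it was 0.14 (two-sided exact permutation p = 0.8 over all 6 libraries). Neuron markers were present in every library and summed to 736.3 to 1127 FPKM in TSCI and to 660.5 to 1625 FPKM in sham. Their median log2 fold change was 0.74 below that of all tested genes, 12 of 15 were negative and none passed in the gene fit (1 higher at an unadjusted p under 0.05). The part of neuron content in the Arc and Npas4 values was not tested.

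**Figure D3:**
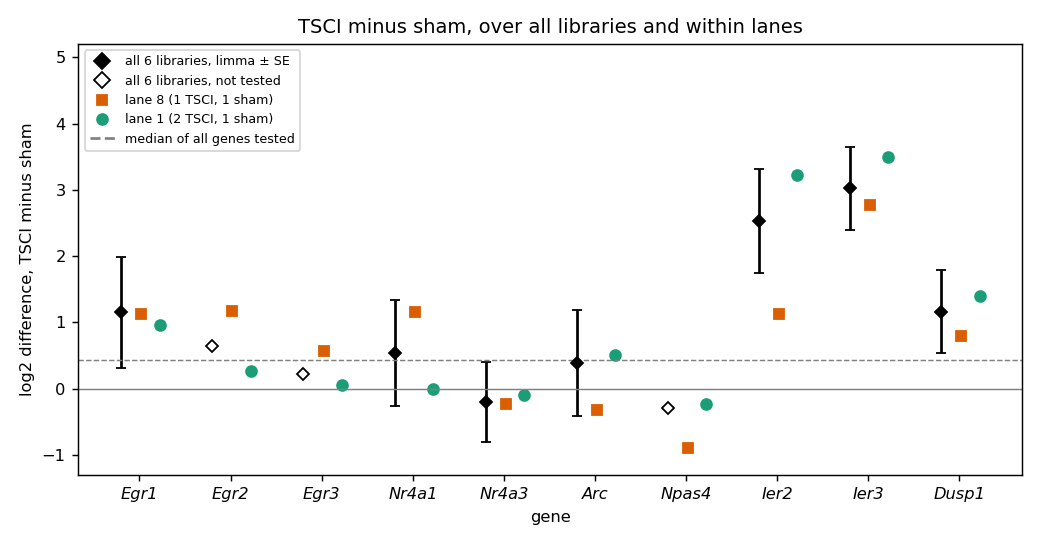
Difference in log2(FPKM + 0.5), TSCI minus sham, over all 6 libraries (diamonds, with the limma SE where tested) and within lane 8 (squares) and lane 1 (circles). Ier3 lies between 2.77 and 3.49 in all 3 estimates, Ier2 and Dusp1 are positive in all 3, and Egr2, Egr3, Nr4a1, Nr4a3, Arc and Npas4 lie below the dashed all-library median of all tested genes in at least 1 lane.

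Most members also differed by sequencing lane within each group. The lane 8 library was the highest of its group in both groups for 8 of the 10 members, against 38.3% of tested genes. For Egr1, Egr3, Nr4a1, Nr4a3, Arc and Npas4 both lane 8 libraries lay above all 4 libraries of the other lanes, against 28% of tested genes. The members counted here include Egr2, Egr3 and Npas4, which were too low for testing, so both shares come from genes at higher levels. In Egr1 the lane 8 library was 2.13 above the mean of its group's other libraries on the log2 scale in TSCI and 2.16 in sham. In Ier3 these differences were 0.20 in TSCI and 0.58 in sham, against a median over tested genes of 0.35 in TSCI and 0.95 in sham. Lane, RNA preparation and mouse set cannot be told apart for these libraries.

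By level, Ier3 stood first in TSCI, where its range of 15.3 to 19.3 FPKM lay above the 7.90 to 14.3 FPKM of Dusp1. Egr1 (1.93 to 12.1 FPKM) and Ier2 (2.26 to 7.47 FPKM) followed by mean only. Egr1 overlapped with Dusp1, and Nr4a1 (0.866 to 7.39 FPKM) and Arc (1.03 to 3.68 FPKM) overlapped with both Egr1 and Ier2. In sham, Dusp1 had the highest mean, and its 3.75 to 6.25 FPKM overlapped with Egr1 (0.617 to 5.27 FPKM) and Arc (0.352 to 4.71 FPKM). Nr4a3, Egr2, Egr3 and Npas4 were the lowest in both groups by mean, each under 1 FPKM. The summed level of the 10 members was 30.1 to 61.8 FPKM in TSCI and 8.25 to 26.3 FPKM in sham.

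The genes outside the set with the most similar pattern over the 6 libraries were Abhd2, Rpia, Srrt, Dnajc13 and Slc4a7, with Pearson r from 0.996 to 0.999 to the mean standardised profile of 9 members (Spearman rho of 1 for each). Egr3, listed at 0 in 3 libraries, stayed out of that profile. They were the best of 14356 genes over libraries that share lanes and depth, so the values are a description only. In all 5 genes TSCI replicate 1 was the highest library and sham replicate 1 the second, as in Srrt with 47.1, 8.96 and 15.7 FPKM in TSCI replicates 1 to 3 and 25.3, 4.32 and 5.55 FPKM in sham replicates 1 to 3.

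Related genes were read in the same fit from 6 lists. The closest relatives were low or did not pass. Egr4 had at most 0.0621 FPKM in TSCI and was at 0 in sham, and Nr4a2 had 0.954, 0.2 and 0.226 FPKM in TSCI and 0.933, 0.0876 and 0.12 FPKM in sham, so neither was tested. The EGR corepressors Nab2 (3.04 ± 0.889 FPKM in TSCI and 1.38 ± 1.01 FPKM in sham, SD, n = 3 each) and Nab1 (10.5 ± 2.09 FPKM in TSCI and 8.49 ± 3.48 FPKM in sham) did not pass, also not at an unadjusted p under 0.05 (limma, adjusted p = 0.599 and 0.869). The sign of Nab1 turned to negative under both scalings (-0.10). Among 8 AP-1 subunits, all 8 had positive fold changes, as deposited and under both scalings. Atf3 passed, at 16.8, 20.1 and 23.5 FPKM in TSCI against 0.572, 0 and 0.602 FPKM in sham (log2 fold change 4.61 ± 0.66, SE; limma, adjusted p = 0.00627). The Atf3 call was lost without TSCI replicate 3 (limma, adjusted p = 0.0874) and with no filter (0.148). Jun had 23.3 ± 9.39 FPKM in TSCI and 7.20 ± 2.20 FPKM in sham, and Fosl2 had 3.72 ± 1.03 FPKM in TSCI and 1.09 ± 0.584 FPKM in sham (SD, n = 3 each; limma, adjusted p = 0.329 and 0.41).

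Among 22 early effector genes, 21 had positive fold changes (20 under either scaling) and 2 rose past the threshold (1 under either scaling), Cyr61 and Ptgs2, with a list median 0.66 above that of all tested genes. Cyr61, a matrix protein of the CCN family, had 50.8, 32.8 and 32.7 FPKM in TSCI replicates 1 to 3, against 1.37, 2.94 and 2.46 FPKM in sham replicates 1 to 3 (log2 fold change 3.85 ± 0.63, SE; limma, adjusted p = 0.0136). Ptgs2, the inducible cyclooxygenase that makes prostaglandins, had 7.69, 5.42 and 13.6 FPKM in TSCI, against 0.487, 0.167 and 0.289 FPKM in sham (log2 fold change 3.45 ± 0.66, SE; limma, adjusted p = 0.0274). In both genes the groups were far apart. The Cyr61 call was lost without TSCI replicate 2 or 3 or sham replicate 3 (limma, adjusted p = 0.0522, 0.129 and 0.0541). Scaling by median ratios (limma, adjusted p = 0.0542), quantile normalization (0.0548), all isoform classes (0.0513) and no filter (0.148) ended it as well. The Ptgs2 call was lost without any 1 of the TSCI replicates or without sham replicate 2 or 3 (limma, adjusted p = 0.0672 to 0.277). All isoform classes (limma, adjusted p = 0.131) and no filter (0.246) ended that call as well. From isoforms identical to the annotation only, the log2 fold change of Ptgs2 was 2.22 and did not pass (limma, adjusted p = 0.355), and lane as a covariate also ended its call (0.0708). Gadd45a, a growth arrest gene, lay just outside the threshold with 16.5 ± 2.64 FPKM in TSCI and 1.76 ± 1.41 FPKM in sham (SD, n = 3 each; limma, adjusted p = 0.0542). The number of passing effector genes was 1, 0 and 0 without TSCI replicates 1, 2 and 3, and 7, 1 and 0 without sham replicates 1, 2 and 3. In the same fits 88, 40 and 14 of all tested genes passed without TSCI replicates 1, 2 and 3. Without sham replicates 1, 2 and 3 it was 1448, 50 and 48.

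Of 15 other early transcription regulators 14 had positive fold changes (11 with scaling by median ratios and 12 with quantile normalization), with a list median 0.81 above that of all tested genes. None passed in limma, while 4 were higher at an unadjusted p under 0.05. Among all 16740 tested genes, 1677 higher and 295 lower ones were under that p. Without sham replicate 1, where 1448 of 16429 genes passed, 2 of the 15 passed. The small MAF protein Maff, at 5.35, 6.71 and 10.8 FPKM in TSCI against 1.06, 0 and 0.974 FPKM in sham, came closest (limma, adjusted p = 0.0742), followed by Csrnp1 (0.174) and Ier5 (0.241). These 3 genes, named for their low p, were higher in every TSCI library than in any sham library, as were 7 of the 15 in all, against 13.4% of tested genes. Of 11 other MAP kinase phosphatases 9 were tested and none passed (1 without sham replicate 1; 2 at an unadjusted p under 0.05), 7 were positive (4 with quantile normalization), and the list median stood 0.03 below that of all tested genes. Dusp6, which acts on ERK, had 9.38, 11.1 and 25.5 FPKM in TSCI against 1.90, 2.15 and 2.55 FPKM in sham (limma, adjusted p = 0.105), and Dusp5 had an adjusted p of 0.277 and Dusp7 of 0.624 in the same limma fit. The 29 upstream kinases, coactivators and promoter-bound factors had a list median 0.08 above that of all tested genes, with 23 positive as deposited, 16 with scaling by median ratios and 15 with quantile normalization. None of them passed in limma (4 did without sham replicate 1), and before adjustment 3 higher and 1 lower gene had a p under 0.05. The lowest p among them belonged to Mapkapk2 (13.4 ± 4.80 FPKM in TSCI and 2.80 ± 2.33 FPKM in sham, SD, n = 3 each; limma, adjusted p = 0.2), Crem (0.281) and Elk3 (0.341).

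**Figure D4:**
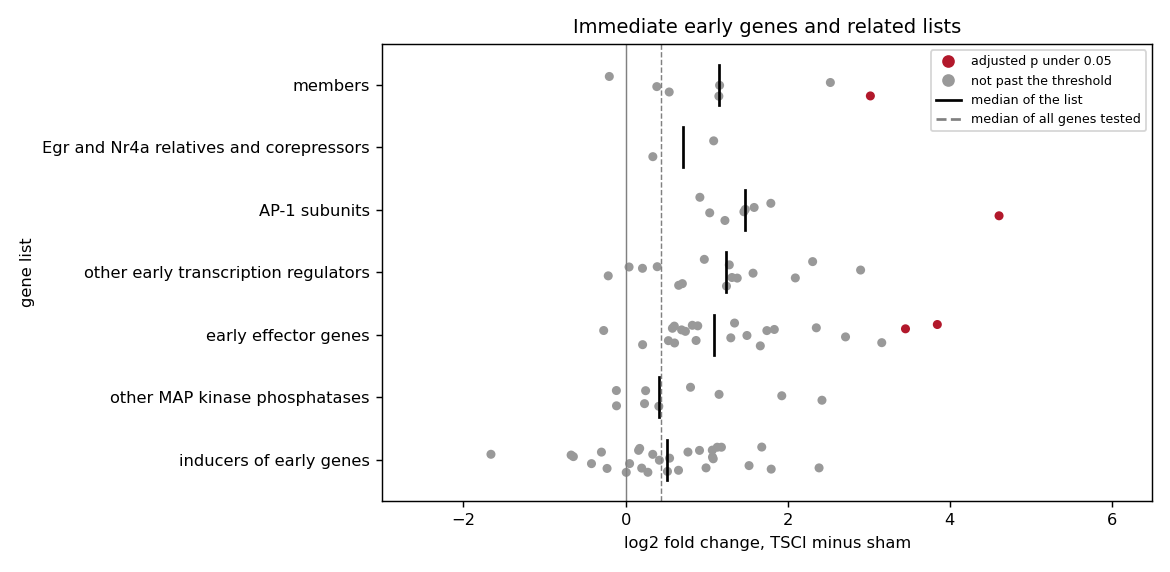
Log2 fold change, TSCI minus sham, of the tested genes of the member set and of 6 related lists (1 point a gene, red where the limma adjusted p is under 0.05), with the list median as a black line and the median of all tested genes as a dashed line. Ier3, Atf3, Cyr61 and Ptgs2 are the red points.

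Markers of other cells were read in the same fit, and their part in these results was not tested. All 12 markers of microglia and macrophages had positive fold changes and summed to 636.4 to 2896 FPKM in TSCI and to 95.98 to 226.3 FPKM in sham, and 4 of them passed (Adgre1, Cd14, Cd68 and Itgam). Under either scaling 11 of the 12 were positive, with Cx3cr1 negative, and 1 passed. Endothelial markers (8 of 8 positive) summed to 33.4 to 87.0 FPKM in TSCI and to 7.33 to 26.3 FPKM in sham. Fibroblast and meningeal markers (7 of 8 positive) summed to 457.4 to 560.2 FPKM in TSCI and to 146.5 to 216.5 FPKM in sham. Erythrocyte markers (7 of 7 positive) summed to 9111 to 140400 FPKM in TSCI and to 3039 to 30570 FPKM in sham. Neutrophil markers (8 of 8 positive) overlapped, at 122.8 to 495.1 FPKM in TSCI and 20.4 to 273.7 FPKM in sham. Skeletal muscle markers (0 of 10 positive) summed to 24.3 to 125.6 FPKM in TSCI and to 25.6 to 912.3 FPKM in sham. Pvalb alone made up most of this sum in every library. It had 23.4, 110.6 and 45.3 FPKM in TSCI replicates 1 to 3, against 22.4, 774.7 and 472.2 FPKM in sham replicates 1 to 3. Astrocyte markers (4 of 8 positive) summed to 794.4 to 1568 FPKM in TSCI and to 325 to 1630 FPKM in sham, and oligodendrocyte markers (5 of 8 positive) to 1546 to 5283 FPKM in TSCI and to 928.9 to 6429 FPKM in sham. No marker of these lists was at 0 in all 6 libraries, and no marker outside the microglia and macrophage list passed in limma. Before adjustment, p was under 0.05 in limma for 9 higher markers of microglia and macrophages. The count was 4 higher each for endothelium, fibroblasts and meninges, and neutrophils, 1 higher for erythrocytes and 5 lower for skeletal muscle. Among all 16740 tested genes, 1677 higher and 295 lower ones were under that p.

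Isoforms outside the reference classes added signal at member loci mainly in single libraries. Of 25 isoforms carrying a member's name, 9 were intronic (3) or near the gene (6), and 6 of these 9 were above 0 in TSCI replicate 1. The intronic isoforms of Egr2, Nr4a1 and Nr4a3 had 2.88, 3.61 and 2.48 FPKM in TSCI replicate 1 and were at 0 in TSCI replicates 2 and 3. In sham that of Nr4a1 had 0.276 FPKM in replicate 1, and all other values were 0. None of the 17440 circRNAs of the second deposited table was assigned to a member as its host gene.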

How the data were processed

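RNA of 3 TSCI and 3 sham spinal cord libraries was analysed. Per the labels' protocols, total RNA was depleted of ribosomal RNA and made into stranded libraries. HISAT2, StringTie and TopHat are listed, with no version, in the submitters' processing notes, and no genome build is named in the labels. Because 94.6% of 78098 Ensembl transcripts had the same coordinates in GENCODE M21 (GRCm38), positions are given on that build. The isoform table held FPKM and coverage (signal) as deposited by the authors for 194125 isoforms. The circRNA table held estimated counts and FPKM as deposited by the authors and was used only for host genes; 33.8% of its counts were whole numbers (within 1e-06). Columns were matched to samples by name.

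FPKM of classes =, j, c, o and e were summed per gene name, and genes or isoforms with a mean of at least 0.5 FPKM were tested with limma 3.58.1 (R 4.3.3; Python 3.11.15 for the tables) on log2(FPKM + 0.5), with a mean-variance trend and Benjamini-Hochberg adjustment at 0.05. The pseudocount makes fold changes of low genes too small. Isoform p-values rest on 1 common variance trend, since limma's prior degrees of freedom were infinite there. The functions were tested on simulated data, where estimates came out near the planted changes. The gene fit missed most changes up to the size of that of Ier3 and the isoform fit missed all, so a result that did not pass is not shown to be unaltered. FPKM were not rescaled. Members, lists and tests were chosen with earlier results of these data known. Named genes were all members, the 3 of lowest p per related list and the 5 most similar in pattern. Member isoforms with at least 20% of the gene's FPKM were named too. Egr4, Nr4a2, Cx3cr1, Pvalb and the passing macrophage markers were chosen after their values were seen. Alternatives were other pseudocounts, filters, scalings, isoform classes, array weights, robust moderation, replicate number or lane as covariates, and left-out libraries.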

Additional observations from a re-analysis of the deposited data

How the results depend on the processing

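The number of genes past the threshold (149) depended on the settings. It was 74 with median-ratio scaling, 61 with quantile normalization, 7427 with array weights (whose estimation stopped before convergence), 38 with lane as a covariate, 644 with lane 8 as a covariate, 616 with no lane 8 libraries, 24 from all class codes, 43 from class = isoforms only, and 14 to 1448 with 1 library left out. With no filter it was 0 in limma, with 2030 higher and 305 lower genes at an unadjusted p under 0.05. The number of members past the threshold (1) was 0 with a pseudocount of 0.1, no filter, either scaling, lane as a covariate, all class codes and class = isoforms only. In those limma fits Ier2 and Ier3 were under an unadjusted p of 0.05, joined with no filter by Dusp1, as were Ier2 and Ier3 in the fits with 0 members and 1 library left out. It was 4 with array weights (Dusp1, Egr1, Ier2 and Ier3), 2 with no lane 8 libraries, and 0 to 2 with 1 library left out. The number of isoforms past the threshold (186) was 303 with a pseudocount of 0.1, 60 with a mean of at least 1 FPKM, 70 with median-ratio scaling and 54 to 1010 with 1 library left out.

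The labels give no pairing by replicate number, although both replicates 1 were on lane 8 and both replicates 3 on lane 1. Deviations of same-numbered libraries correlated at 0.49, 0.28 and 0.08, and TSCI replicate 2 correlated best with sham replicate 3 (0.36). With the replicate block, 963 genes, 2 members (Ier2 and Ier3) and 1 isoform passed.

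Member, related gene and isoform values that changed sign, none past the threshold in either fit, were those of Nr4a1 (-0.94 from class = isoforms only; -0.23 to 1.03 with 1 library left out), Nr4a3 (0.12 with array weights, 0.34 from all class codes; -0.34 to 0.026 with 1 library left out), Arc (-0.11 with quantile normalization; -0.13 to 1.18 with 1 library left out) and Nab1 (-0.10 with either scaling, -0.89 from class = isoforms only). Among isoforms they were Arc ENSMUST00000023268 (-0.0039 to 0.97 with 1 library left out), Arc ENSMUST00000110009 (0.19 with a pseudocount of 0.1; -0.55 to 0.17), Dusp1 ENSMUST00000126178 (-1.35 to 0.013) and Nr4a3 ENSMUST00000030025 (-0.36 to 0.0073). Of the untested members, Egr3 (0.23) was -1.92 from all class codes and -0.27 without TSCI replicate 1, and Npas4 (-0.29) was 0.0054 with no lane 8 libraries and 0.14 without sham replicate 1. The cause of these changes was not tested.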
